A study of Homo sapiens with 24 samples.

Results

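The hypoxia response and glycolysis genes were examined in RNA-seq of 4 human cancer cell lines in which the RNA-binding protein IGF2BP1 had been depleted. The set held 39 genes of the 58174 in each deposited table, matched by gene symbol: 17 glycolytic enzymes, 20 other targets of the hypoxia-inducible factors (HIF), and the HIF subunit genes HIF1A and ARNT. The lines were A549 (lung adenocarcinoma), ES-2 (ovarian clear cell adenocarcinoma), MV3 (amelanotic melanoma) and PANC-1 (pancreatic ductal adenocarcinoma). Each line had 3 siC libraries (control siRNA) and 3 siI1 libraries (a pool of siRNAs against IGF2BP1), harvested 72 h after transfection for A549, ES-2 and MV3 and 96 h for PANC-1. All cells grew in DMEM with serum, and the sources used here name no low-oxygen group. Levels are given as FPKM (fragments scaled by gene length and sequencing depth), so that genes of unlike length can be compared within a line. Fold changes are siI1 minus siC on the log2(FPKM + 0.5) scale, which understates the change of low genes.

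HIF is a pair of proteins, an alpha subunit such as HIF1A and the constant partner ARNT. With oxygen present, prolyl hydroxylases of the EGLN family mark the alpha subunit for destruction, so that much of HIF control acts on protein and is not seen in RNA. When the alpha subunit persists, the pair binds a short core word in DNA, the hypoxia response element, and raises genes for glucose import, glycolysis, acid export, blood vessel growth, mitochondrial removal and collagen maturation. Glycolytic enzymes are also abundant housekeeping transcripts under further control, which is why they were set against the other HIF targets. IGF2BP1 is a fetal protein re-expressed in tumours that binds mRNAs and alters their turnover.

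IGF2BP1 itself (chr17:48997385-49056145 on hg38) was lower in every siI1 library than in any siC library of its line. In A549 it measured 39.8, 39.8 and 39.6 FPKM in siC and 15.3, 16.4 and 15.2 FPKM in siI1. In ES-2 it measured 13.1, 14.0 and 12.1 FPKM against 4.22, 4.19 and 4.03 FPKM. In MV3 it measured 9.09, 9.64 and 9.06 FPKM against 3.02, 2.95 and 2.77 FPKM, and in PANC-1 11.2, 11.3 and 11 FPKM against 2.75, 2.87 and 2.71 FPKM. These were log2 fold changes of -1.32, -1.55, -1.52 and -1.83 (limma, adjusted p = 0.000319, 0.000115, 5.93e-05 and 0.000227, in the order A549, ES-2, MV3 and PANC-1).

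Between 3105215 and 20082702 reads per library could be recovered from the FPKM steps, fewest in A549 and most in MV3. The PANC-1 libraries stood apart by the sum of FPKM over all genes, 526337 to 756438 in siC against 977547 to 1191707 in siI1. The 7SL RNA gene RN7SL2 moved with that sum in PANC-1, at 263872 to 425337 FPKM in siC and 605711 to 769585 FPKM in siI1, while genes of at least 500 bases summed to 186726 to 205886 FPKM over the 6 libraries. With PANC-1 rescaled to the same total sum, the median gene shifted from a log2 fold change of -0.04 to -0.68. The PANC-1 directions of members called there are therefore stated below with their value relative to that median where they turn. Of the line identity markers, KRT7 and KRT18 were high in A549 but lower in siI1 (KRT7 398.7 against 149.2 FPKM on average), while NKX2-1, SFTPB and SFTPC were at 0. In ES-2 KRT7 (103.5 and 153.1 FPKM in siC and siI1) and KRT18 (44.4 and 42.1 FPKM) were present and MUC16 was at 0. In MV3 SOX10, TYR, DCT and S100B were at 0, and KRT19 was high in PANC-1 (616.8 and 844.2 FPKM) with GATA6 and CFTR under 0.1 FPKM. In cultures measured in bulk, fewer cells that express a gene and less RNA per cell cannot be told apart.

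The core words of the hypoxia response element, ACGTG and GCGTG, were looked for on both strands of the RefSeq promoter windows (GRCh38.p14, 250 bases before to 50 after each start). CACGTG reads the same on both strands and counts at adjacent positions. Of all 35116 promoters 48.4% held at least 1 of the words, against 12 of 17 glycolytic enzymes (70.6%), 13 of 16 other HIF targets (81.2%) and 1 of 2 HIF subunit genes. VEGFA, NDRG1, BNIP3L and SLC2A3 were not matched. The share over all promoters counted every window, whereas each member entered with 1 window, the first listed. The members were taken as known HIF targets, so these shares are a description. The 150 bases shown lie just before the RefSeq start of CA9 (chr9:35673778-35673927, plus strand), LDHA (chr11:18394413-18394562, plus strand) and HK2 (chr2:74833977-74834126, plus strand), and from 200 to 51 bases before the start of BNIP3 (chr10:131981974-131982123, minus strand). They were chosen because CA9 and BNIP3 are HIF targets that rose, LDHA a glycolytic enzyme that rose in 1 line and fell in another, and HK2 one that fell in 2 lines. Capitals mark the core words on either strand, 1 in CA9, 3 in LDHA, 2 in HK2 and 6 in BNIP3.
CA9: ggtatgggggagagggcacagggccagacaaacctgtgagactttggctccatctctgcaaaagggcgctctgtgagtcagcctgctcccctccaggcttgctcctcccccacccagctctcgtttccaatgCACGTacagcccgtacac
LDHA: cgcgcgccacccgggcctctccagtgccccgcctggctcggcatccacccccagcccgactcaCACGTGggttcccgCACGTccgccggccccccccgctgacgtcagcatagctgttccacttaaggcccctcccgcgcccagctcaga
HK2: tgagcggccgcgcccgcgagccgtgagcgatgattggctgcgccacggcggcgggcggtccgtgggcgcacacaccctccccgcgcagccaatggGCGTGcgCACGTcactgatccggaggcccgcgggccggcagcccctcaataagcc
BNIP3: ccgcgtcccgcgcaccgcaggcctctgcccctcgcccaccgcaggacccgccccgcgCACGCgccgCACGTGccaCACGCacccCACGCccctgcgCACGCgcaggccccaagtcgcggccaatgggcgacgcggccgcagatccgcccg
A match shows only that the letters stand in the window. No binding of HIF was measured in these libraries.

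The response of the 39 genes was largest in A549. There 24 of the 39 rose (61.5%, against 5.93% of all 18411 genes tested) and 2 fell, PFKFB3 and P4HA2 (5.13%, against 7.83% of all genes). The median log2 fold change of the members was 0.42, beside -0.01 over all genes tested. In ES-2, 34 members passed the filter of a mean of 0.5 FPKM, and 8 of them rose and 6 fell (backgrounds of 10.5% and 13%). In MV3, 37 members passed, with 9 higher and 6 lower (backgrounds of 16.3% and 19.5%). In PANC-1, 34 members passed, with 6 higher and 3 lower (backgrounds of 11.3% and 13.4%). The median log2 fold changes in these lines were 0.01, -0.02 and 0.05, beside medians of all genes of -0.02, 0.01 and -0.04, and their shares of called members lay near the backgrounds or up to 23.5% (higher in ES-2) and 24.3% (higher in MV3). With the libraries set to the same total sum the members numbered 7 higher and 9 lower in MV3, and 0 higher and 24 lower in PANC-1, where their median lay only 0.02 above that of all genes. With the sum over genes of at least 500 bases, a scaling added after seeing the data, PANC-1 had 6 higher and 6 lower and MV3 12 and 6. Without siC replicate 3, MV3 had 10 lower, and without siI1 replicate 1 or 2, PANC-1 had 1 lower.

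**Figure D1:**
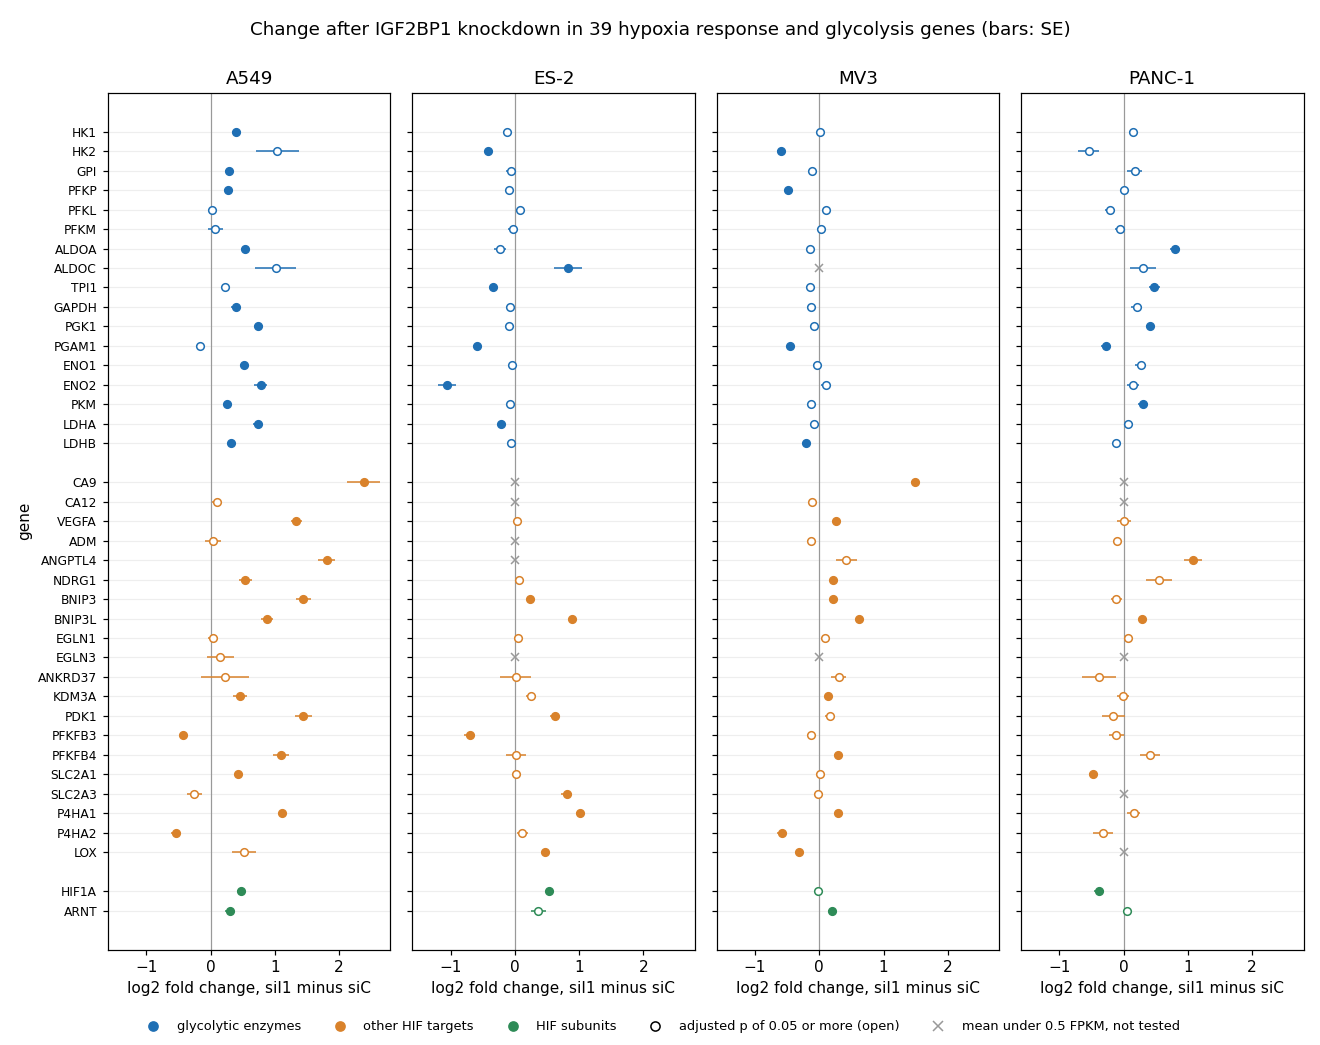
Log2 fold change of the 39 genes (rows, coloured by class) in each line (panels), siI1 minus siC on the log2(FPKM + 0.5) scale, with the SE of the limma fit as bars; filled points passed an adjusted p of 0.05, open points did not, and crosses mark genes under a mean of 0.5 FPKM. In A549 most points lie right of 0, with CA9 farthest at 2.38, whereas in ES-2 and MV3 the only filled point of a glycolytic enzyme right of 0 is ALDOC in ES-2, at 0.83.

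The 2 classes were then compared within each line. In A549 both rose, 11 of 17 glycolytic enzymes (64.7%, median 0.39) and 11 of 20 other HIF targets (55%, median 0.49), against the 5.93% of all genes. Without siI1 replicate 2 the numbers were 6 and 9. HK2 and ALDOC passed the filter in A549 only through siI1, with siC means of 0.162 and 0.359 FPKM. With a filter of 1 FPKM, which leaves both out, the glycolytic median lay 0.34 above that of all genes, against 0.40 with the main filter. In ES-2 only 1 of 17 glycolytic enzymes rose (5.88%, against 10.5% of all genes) and 5 fell (29.4%, against 13%, median -0.09). Of the 15 HIF targets tested there, 6 rose (40%) and 1 fell (6.67%, median 0.12). In MV3 none of 16 glycolytic enzymes rose (against 16.3% of all genes) and 4 fell (25%, against 19.5%, median -0.12). Of 19 HIF targets there, 8 rose (42.1%) and 2 fell (10.5%, median 0.16). Under the scaling to genes of at least 500 bases, however, 2 glycolytic enzymes rose in MV3. The number of glycolytic enzymes that fell in MV3 was 7 without siC replicate 3 or with the same total sum, and 10 with limma voom on recovered reads. In PANC-1 the order of the medians was turned. There 4 of 17 glycolytic enzymes were higher (23.5%, against 11.3% of all genes) and 1 was lower (5.88%, against 13.4%, median 0.15). Of 15 HIF targets, 2 were higher (13.3%) and 1 lower (6.67%), shares near or under those of all genes (median -0.01). NDRG1 passed the filter in PANC-1 only through siI1, with a siC mean of 0.459 FPKM. The median of the HIF targets minus that of the glycolytic enzymes was 0.10 in A549, 0.21 in ES-2, 0.28 in MV3 and -0.16 in PANC-1, given as a description with no test. Leaving out each library in turn kept these signs, at 0.04 (without siC replicate 3) to 0.18 (without siC replicate 2) in A549, 0.17 to 0.28 in ES-2, 0.23 to 0.34 in MV3 and -0.26 (without siC replicate 2) to -0.10 (without siC replicate 1) in PANC-1.

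**Figure D2:**
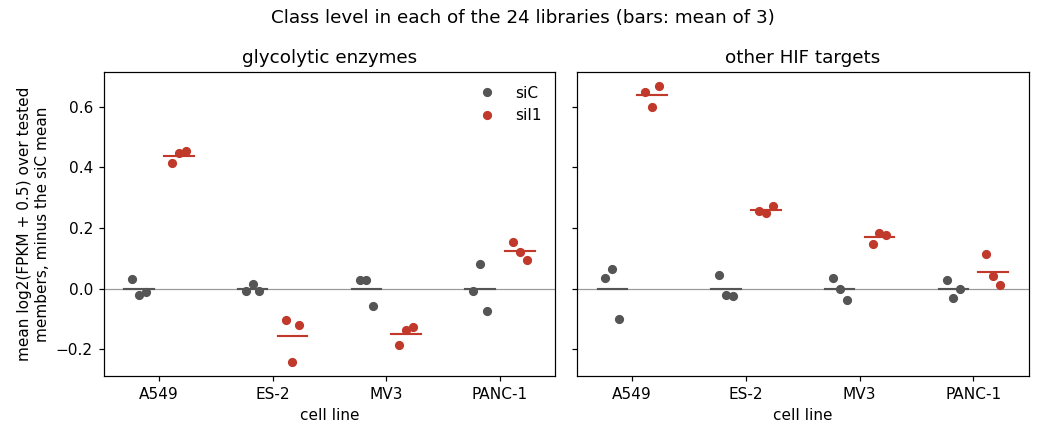
Mean log2(FPKM + 0.5) over the tested members of a class in each library, minus the siC mean of the line (vertical axis), for glycolytic enzymes (left) and other HIF targets (right); points are libraries and bars the mean of 3. The glycolytic means of the siI1 libraries were 0.41 to 0.45 in A549, -0.24 to -0.10 in ES-2, -0.19 to -0.13 in MV3 and 0.09 to 0.15 in PANC-1, and those of the HIF targets 0.60 to 0.67, 0.25 to 0.27, 0.15 to 0.19 and 0.01 to 0.11. HK2 and ALDOC in A549 and NDRG1 in PANC-1 enter these means although their siC means lay under the filter.

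Among the glycolytic enzymes of A549, the 11 that rose had log2 fold changes from 0.26 (PKM) to 0.78 (ENO2). GAPDH, which oxidises glyceraldehyde phosphate, had the highest mean level of all members. In A549 it measured 899.7, 816.6 and 896.5 FPKM in siC and 1097.9, 1188.5 and 1133.7 FPKM in siI1 (0.39 ± 0.06 SE, limma, adjusted p = 0.0133), and the groups did not overlap. Its adjusted p was 0.0533 without siI1 replicate 2 and 0.0926 with no filter on low values. In the other lines it was not called, at 1429.3 ± 40.8 against 1351.6 ± 67 FPKM in ES-2 (mean ± SD, n = 3), 1361.5 ± 87.7 against 1249.3 ± 30.1 FPKM in MV3 and 536.6 ± 49 against 615.8 ± 18.5 FPKM in PANC-1. Phosphoglycerate kinase (PGK1) and lactate dehydrogenase A (LDHA, which turns pyruvate to lactate) rose more in A549, PGK1 from 128.6 ± 12.2 to 215.0 ± 3.79 FPKM (0.74) and LDHA from 202.6 ± 14.5 to 336.3 ± 13.3 FPKM (0.73). Aldolase A (ALDOA) and enolase 1 (ENO1) rose by 0.53 and 0.52 on the log2 scale. HK1, GPI, PFKP, PKM and LDHB rose by 0.26 to 0.40, and of these only LDHB kept an adjusted p under 0.05 without any single library.

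In ES-2 and MV3 the enzymes fell or were not called, apart from ALDOC in ES-2. PGAM1, the phosphoglycerate mutase, was lower in 3 lines, with log2 fold changes of -0.60 in ES-2 (adjusted p = 0.00103), -0.46 in MV3 (adjusted p = 0.000955) and -0.27 in PANC-1 (adjusted p = 0.046). In ES-2 it measured 204.0, 219.2 and 221.7 FPKM in siC and 144.0, 134.2 and 147.4 FPKM in siI1. In A549 it measured 138.7 ± 6.65 against 123.3 ± 5.11 FPKM (-0.17, adjusted p = 0.102). No siI1 library reached any siC library of its line in all 4 lines, although the PANC-1 call was lost without any of 5 of the libraries. HK2, the inducible hexokinase, fell in ES-2 from 33.4 ± 1.75 to 24.9 ± 0.247 FPKM (-0.42) and in MV3 from 8.59 ± 0.391 to 5.5 ± 0.369 FPKM (-0.60). In A549 HK2 was near the limit of detection, at 1 to 6 reads in the siC libraries and 17 to 23 in the siI1 libraries, and was not called (adjusted p = 0.102). PFKP, the platelet-type phosphofructokinase, fell in MV3 by 0.49 on the log2 scale and rose in A549 by 0.27. TPI1 and LDHA fell in ES-2 (-0.34 and -0.22), and LDHB fell in MV3 (-0.20). The LDHA call was lost without any of 4 libraries (adjusted p = 0.0516 to 0.0612) and under both other scalings (adjusted p = 0.142 and 0.249). Reads on annotated TPI1 pseudogenes came to 4.29% to 5.32% of those on TPI1, and for the other members tested such reads came to at most 2.86% (HK2 in A549).

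ENO2, the neuronal enolase, changed in opposite directions. In A549 it measured 6.13, 5.75 and 6.29 FPKM in siC and 9.44, 11.3 and 11.6 FPKM in siI1 (0.78 ± 0.10 SE, adjusted p = 0.00577). In ES-2 it measured 6.40, 6.05 and 5.89 FPKM in siC and 3.29, 2.17 and 2.68 FPKM in siI1 (-1.06 ± 0.14 SE, adjusted p = 0.00319). The siI1 libraries lay above all siC libraries in A549 and below all of them in ES-2, from nearly the same siC level within each separately normalised table. MV3 (2.51 ± 0.163 against 2.72 ± 0.155 FPKM) and PANC-1 (2.92 ± 0.182 against 3.28 ± 0.184 FPKM) were not called. Aldolase C (ALDOC) was the glycolytic enzyme that rose in ES-2, from 0.72 ± 0.254 to 1.65 ± 0.319 FPKM (0.83, adjusted p = 0.0386), a call that was lost without any of 4 of the libraries.

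In PANC-1, ALDOA, TPI1, PGK1 and PKM rose. ALDOA measured 160.7, 162.7 and 138.2 FPKM in siC and 279.2, 260.8 and 262.5 FPKM in siI1, a log2 fold change of 0.80 (adjusted p = 0.0019), beside 0.53 in A549. TPI1 rose by 0.48, PGK1 by 0.41 and PKM by 0.30 on the log2 scale. The PKM call was lost without siC replicate 1 or any of the 3 siI1 libraries (adjusted p = 0.0648 to 0.105). With the same total sum in each library ALDOA was at 0.05 (adjusted p = 0.787) and TPI1, PGK1 and PKM turned to -0.28, -0.35 and -0.45, each still above the -0.68 of the median gene. PFKL and PFKM, the liver and muscle phosphofructokinases, were called in no line, with log2 fold changes from -0.21 to 0.10 for PFKL and from -0.05 to 0.08 for PFKM.

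CA9, a membrane carbonic anhydrase that helps tumour cells export acid, had the largest rise of any member. The A549 values were 2.06, 2.41 and 0.956 FPKM in siC and 11.9, 10.8 and 10.5 FPKM in siI1. In MV3 it measured 2.86, 3.29 and 2.92 FPKM in siC and 9.18, 9.72 and 9.24 FPKM in siI1. Every siI1 library lay above every siC library in both lines. The log2 fold changes were 2.38 ± 0.26 SE (5.22-fold, adjusted p = 0.00356) in A549 and 1.49 ± 0.06 SE (2.81-fold, adjusted p = 7.99e-05) in MV3. The A549 siC values rest on 7 to 16 reads a library, and the MV3 values on 72 to 329. CA9 was listed at 0 in all 6 PANC-1 libraries and at 0 to 2 reads in ES-2, and was not tested there. Its relative CA12 was not called in A549 (33.3 ± 2.89 against 35.5 ± 0.545 FPKM) or MV3 (5.41 ± 0.136 against 4.99 ± 0.151 FPKM), so that the ratio of CA12 to CA9 FPKM dropped from 19.8 to 3.21 in A549 and from 1.79 to 0.532 in MV3 (geometric means, libraries of the groups not overlapping).

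Of the secreted factors, VEGFA, the main signal for blood vessel growth, rose in A549 and MV3. Its A549 values were 3.31, 3.47 and 3.43 FPKM in siC and 8.61, 9.54 and 9.93 FPKM in siI1 (1.34 ± 0.09 SE, adjusted p = 0.00086). In MV3, where its level within the table was higher, it measured 17.3, 16.2 and 17.5 FPKM against 20.3, 20.3 and 20.5 FPKM (0.26 ± 0.04 SE, adjusted p = 0.00281). The groups did not overlap in either line. ES-2 (6.31 ± 0.0392 against 6.49 ± 0.112 FPKM) and PANC-1 (2.38 ± 0.186 against 2.39 ± 0.154 FPKM) were not called. ANGPTL4, an inhibitor of lipoprotein lipase, rose in A549 from 4.35, 3.34 and 3.49 FPKM to 14.9, 12.4 and 15.7 FPKM (1.81 ± 0.13 SE, adjusted p = 0.00113). In PANC-1 it rose from 10.2, 11.8 and 8.49 FPKM to 25.4, 21.1 and 19.8 FPKM (1.08 ± 0.14 SE, adjusted p = 0.00371), the groups again not overlapping, although with the same total sum the value was 0.36 (adjusted p = 0.0843). It was not called in MV3 (2.70 ± 0.687 against 3.72 ± 0.322 FPKM), and in ES-2 it was below the filter at 0.391 to 0.614 FPKM in siC and 0 to 0.168 FPKM in siI1. Adrenomedullin (ADM), a vasodilator peptide and a standard HIF target, was called in none of the 3 lines that expressed it, with log2 fold changes of 0.03 in A549, -0.13 in MV3 and -0.11 in PANC-1.

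**Figure D3:**
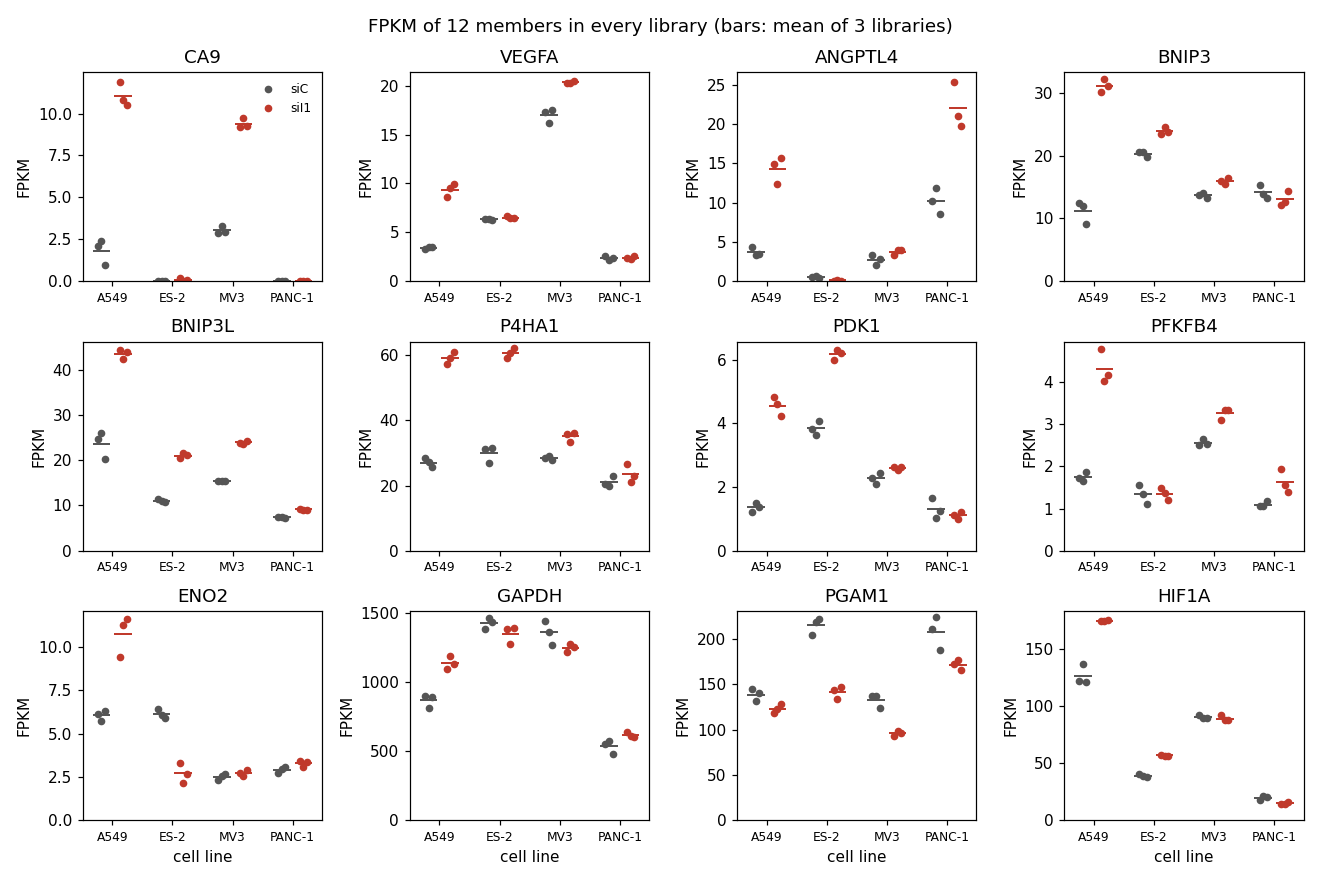
FPKM (vertical axes from 0) of 12 members in each of the 24 libraries by line, siC in grey and siI1 in red, with bars at the mean of 3 libraries; tables were normalised separately, so levels compare within a line. CA9 rises in A549 and MV3 and is at or near 0 in ES-2 and PANC-1, BNIP3L is higher in siI1 in each line (in PANC-1 not with the same total sum, at -0.43), and PGAM1 is lower in siI1 in each line.

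BNIP3L, also called NIX, marks mitochondria for removal and was the only member higher in all 4 lines. It measured 24.6, 26.1 and 20.3 FPKM in siC and 44.4, 42.4 and 44 FPKM in siI1 in A549 (0.88 ± 0.10 SE, adjusted p = 0.00347). In ES-2 it measured 11.5, 10.9 and 10.8 FPKM against 20.4, 21.6 and 21.1 FPKM (0.90 ± 0.05 SE, adjusted p = 0.00022). In MV3 the siC libraries all measured 15.5 FPKM and the siI1 libraries 23.9, 23.6 and 24.3 FPKM (0.61 ± 0.03 SE, adjusted p = 9.99e-05). In PANC-1 it measured 7.45, 7.50 and 7.22 FPKM against 9.30, 9.07 and 8.99 FPKM (0.29 ± 0.06 SE, adjusted p = 0.0142). The groups overlapped in none of the lines. The PANC-1 call was lost without siC replicate 1 (adjusted p = 0.0528) or siI1 replicate 1 (adjusted p = 0.0542), and with the same total sum its value was -0.43, above the median gene at -0.68. Its paralog BNIP3 (chr10:131967684-131981967) rose in A549 from 12.4, 12 and 9.12 FPKM to 30.1, 32.2 and 31.1 FPKM (1.45 ± 0.12 SE, adjusted p = 0.00156). BNIP3 rose less in ES-2, from 20.2 ± 0.487 to 23.9 ± 0.552 FPKM (0.24), and in MV3, from 13.7 ± 0.422 to 16.0 ± 0.427 FPKM (0.22), and was not called in PANC-1 (14.1 ± 1.05 against 13 ± 1.19 FPKM). The ratio of BNIP3L to BNIP3 thus fell in A549, from 2.12 to 1.4, and was higher in siI1 in ES-2 (0.546 to 0.878), MV3 (1.13 to 1.5) and PANC-1 (0.524 to 0.702), with no overlap of libraries in any line.

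Genes for glucose entry and for the switch between glycolysis and mitochondria moved in unlike ways. PDK1, the kinase that shuts pyruvate dehydrogenase, rose in A549 from 1.22, 1.5 and 1.36 FPKM to 4.84, 4.62 and 4.23 FPKM (1.45 ± 0.13 SE, adjusted p = 0.00198). In ES-2 it rose from 3.82, 3.63 and 4.08 FPKM to 5.99, 6.31 and 6.23 FPKM (0.62 ± 0.07 SE, adjusted p = 0.0022), with no overlap of groups in either line. It was not called in MV3 (2.27 ± 0.167 against 2.59 ± 0.0449 FPKM) or PANC-1 (1.31 ± 0.306 against 1.1 ± 0.0953 FPKM). PFKFB3 and PFKFB4 make fructose 2,6-bisphosphate, the activator of phosphofructokinase, and they moved apart. PFKFB4 rose in A549 from 1.73, 1.65 and 1.87 FPKM to 4.78, 4.03 and 4.16 FPKM (1.1 ± 0.13 SE, adjusted p = 0.00399) and in MV3 from 2.56 ± 0.0806 to 3.26 ± 0.142 FPKM (0.30, adjusted p = 0.012). It was not called in ES-2 (0.01) or PANC-1 (0.41). PFKFB3 fell in A549 from 86.8 ± 3.69 to 64.5 ± 1.53 FPKM (-0.43, adjusted p = 0.00393) and in ES-2 from 8.63 ± 0.937 to 5.08 ± 0.193 FPKM (-0.71, adjusted p = 0.00325). The glucose transporter gene SLC2A1 (GLUT1) rose in A549 from 28.5 ± 0.757 to 38.4 ± 1.12 FPKM (0.42, adjusted p = 0.0039) and fell in PANC-1 from 6.80 ± 0.285 to 4.74 ± 0.17 FPKM (-0.48, adjusted p = 0.005). SLC2A3 (GLUT3) rose in ES-2, from 5.06 ± 0.324 to 9.22 ± 0.701 FPKM (0.81, adjusted p = 0.0014), was not called in A549 and MV3, and had at most 5 reads in a PANC-1 library.

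Of the collagen genes, P4HA1, the catalytic subunit of a collagen prolyl hydroxylase and the other HIF target with the highest mean level (chr10:73007217-73096974), rose in 3 lines. It measured 28.3, 27.2 and 25.7 FPKM in siC and 57.2, 59.1 and 61.0 FPKM in siI1 in A549 (1.11 ± 0.06 SE, adjusted p = 0.000474). In ES-2 it measured 31.2, 27.0 and 31.6 FPKM against 59.2, 60.7 and 62.1 FPKM (1.01 ± 0.07 SE, adjusted p = 0.000368). In MV3 it measured 28.5, 29.2 and 27.7 FPKM against 35.9, 33.4 and 36.1 FPKM (0.30 ± 0.04 SE, adjusted p = 0.00241). In these lines the groups did not overlap, whereas in PANC-1 they did, at 20.6, 19.7 and 22.8 FPKM against 26.7, 21.1 and 22.9 FPKM (0.16, adjusted p = 0.308). The alternative subunit P4HA2 fell in A549, from 10.5 ± 0.631 to 7.07 ± 0.358 FPKM (-0.54, adjusted p = 0.00895), and in MV3, from 5.56 ± 0.541 to 3.56 ± 0.232 FPKM (-0.58, adjusted p = 0.00263). LOX, which cross-links collagen, rose in ES-2 from 106.7 ± 3 to 148.2 ± 6.17 FPKM (0.47, adjusted p = 0.00129) and fell in MV3 from 10.6 ± 0.471 to 8.40 ± 0.249 FPKM (-0.32, adjusted p = 0.00272).

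Ratios of related genes within a library do not depend on how the library was scaled. Of 12 such pairs 8 could be formed in all 4 lines, and in 2 of the 8 the siI1 libraries lay on the same side of the siC libraries in every line, without overlap. The same count was not made over other pairs of genes, so it describes these pairs without setting them apart. The ratio of P4HA2 to P4HA1 was lower in siI1, at 0.388 against 0.120 in A549, 0.131 against 0.0704 in ES-2, 0.195 against 0.101 in MV3 and 0.0711 against 0.0467 in PANC-1 (siC against siI1, geometric means). The ratio of PFKFB4 to PFKFB3 was higher in siI1, at 0.0201 against 0.0669 in A549, 0.154 against 0.265 in ES-2, 0.297 against 0.418 in MV3 and 0.337 against 0.548 in PANC-1. The ratio of HK2 to HK1 was lower in siI1 in ES-2, MV3 and PANC-1. It was higher in A549, but there HK2 averaged 0.162 FPKM in siC and 0.849 FPKM in siI1. HK2 thus passed the filter in A549 only through siI1, and its siC ratios rest on 1 to 6 reads. The ratio of LDHB to LDHA was lower in A549, MV3 and PANC-1 and higher in ES-2. PFKM to PFKL overlapped in every line.

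**Figure D4:**
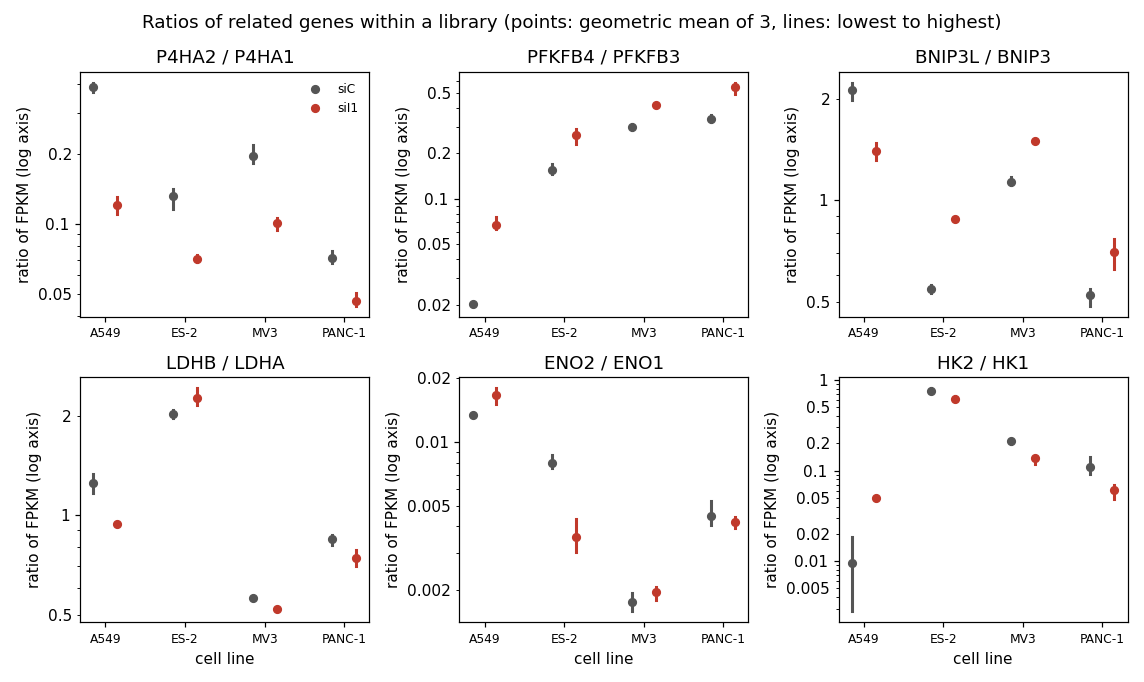
Ratio of FPKM of related genes within a library (log axes), by line, with the geometric mean of 3 libraries as a point and the lowest to highest library as a line, siC in grey and siI1 in red. P4HA2 per P4HA1 is lower in siI1 in each line (0.388 to 0.120 in A549) and PFKFB4 per PFKFB3 is higher in each line (0.0201 to 0.0669 in A549).

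Of the 5 HIF-induced regulators, NDRG1 and KDM3A rose in A549 (40%, against 5.93% of all genes). The same 2 of the 4 tested rose in MV3 (50%, against 16.3%). None of the 4 tested in ES-2 or of the 4 tested in PANC-1 was called. EGLN1, the main oxygen-sensing hydroxylase, had log2 fold changes of 0.04 to 0.08 in the 4 lines and was not called in any. EGLN3 passed the filter only in A549, where it was not called (0.15, adjusted p = 0.696), and ANKRD37, at group means of 0.636 to 1.63 FPKM, was not called in any line. The histone demethylase gene KDM3A rose in A549 (0.46, adjusted p = 0.0377) and MV3 (0.14, adjusted p = 0.0213), the A549 call being lost without any of the 6 libraries and the MV3 call without any of 4. NDRG1, a stress-responsive gene, rose in A549 from 4.10 ± 0.302 to 6.18 ± 0.374 FPKM (0.54, adjusted p = 0.0178, and 0.0534 to 0.0663 without siC replicate 3, siI1 replicate 2 or siI1 replicate 3) and in MV3 from 13.5 ± 0.28 to 15.8 ± 0.452 FPKM (0.22, adjusted p = 0.00452).

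HIF1A (chr14:61695513-61748259), the oxygen-regulated subunit, was higher in siI1 in A549 and ES-2, lower in PANC-1 and not called in MV3. The libraries of A549 measured 121.5, 136.7 and 120.7 FPKM in siC and 174.8, 174.2 and 175.0 FPKM in siI1 (0.47 ± 0.06 SE, adjusted p = 0.00538). In ES-2 it measured 40.9, 38.5 and 37.8 FPKM against 57.2, 56.7 and 56.5 FPKM (0.54 ± 0.04 SE, adjusted p = 0.000687). In PANC-1 it was lower, at 17.6, 20.9 and 20.2 FPKM against 14.5, 14.4 and 15.7 FPKM (-0.38 ± 0.08 SE, adjusted p = 0.0166). These 3 pairs of groups did not overlap, and the PANC-1 call was lost without siC replicate 3, siI1 replicate 1 or siI1 replicate 2 (adjusted p = 0.0524 to 0.0594). In MV3, where CA9 and VEGFA rose, HIF1A was not called, at 92.5, 89.6 and 89.6 FPKM against 92.1, 87.5 and 87.6 FPKM (-0.02 ± 0.03 SE, adjusted p = 0.611). ARNT rose in A549 (0.30, adjusted p = 0.0453) and MV3 (0.19, adjusted p = 0.0409), lost without any of the 6 libraries in A549 and any of 5 in MV3, and measured 3.58 ± 0.409 against 4.76 ± 0.553 FPKM in ES-2 and 8.39 ± 0.486 against 8.69 ± 0.307 FPKM in PANC-1.

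To ask whether a gene's response differed between lines, all 24 libraries were fitted together (limma F test with 3 degrees of freedom). The fold change differed for 27 of the 31 members tested in all lines (87.1%), against 45% of all 12816 genes tested. These were 15 of 16 glycolytic enzymes and 11 of 13 other HIF targets, together with HIF1A. VEGFA (adjusted p = 1.03e-09), BNIP3 (adjusted p = 5.33e-08) and HIF1A (adjusted p = 9.29e-08) had the lowest values, and PFKM, EGLN1, ANKRD37 and ARNT did not pass. Across the lines 32 members were called at least once, 8 of them in opposite directions in different lines, and 7 were called in no line. The same counts were not made over all genes, so these numbers describe the members without setting them apart.

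Genes of the same pathways outside the set were counted from further lists. Of 22 further HIF targets, such as DDIT4 and PLOD2, 9 of 20 tested rose in A549 (45%, against 5.93% of all genes) and none fell. In ES-2 6 of 20 rose (30%, against 10.5%) and 1 fell, in MV3 8 of 20 rose (40%, against 16.3%) and 3 fell (15%, against 19.5%), and in PANC-1 4 of 17 rose (23.5%, against 11.3%) and 3 fell (17.6%, against 13.4%). The largest rise among them was that of DDIT4, an inhibitor of mTORC1, in A549, from 47.9 ± 3.49 to 158.2 ± 6.17 FPKM (1.71, adjusted p = 0.000319). The largest fall was that of ERO1A, an oxidase of the endoplasmic reticulum, in PANC-1, from 11.2 ± 0.884 to 7.06 ± 0.189 FPKM (-0.63, adjusted p = 0.00283). Of 13 further regulators of HIF, 2 of 12 rose in A549 (16.7%), 2 of 12 in ES-2 (16.7%), 4 of 12 in MV3 (33.3%) and 6 of 11 in PANC-1 (54.5%), against 5.93%, 10.5%, 16.3% and 11.3% of all genes, and SIAH2 in MV3 was the only fall (-0.24, adjusted p = 0.0456). The largest rise was that of ARNT2, a relative of ARNT, in ES-2, from 1.74 ± 0.0674 to 6.16 ± 0.698 FPKM (1.56, adjusted p = 0.000346). Of 23 further glycolysis and pyruvate genes, 0 of 16 tested rose and 5 fell in A549 (31.2%, against 7.83% of all genes). In ES-2 2 of 15 rose (13.3%, against 10.5%) and 4 fell (26.7%, against 13%), in MV3 2 of 14 rose (14.3%, against 16.3%) and 5 fell (35.7%, against 19.5%), and in PANC-1 1 of 13 rose and 1 fell (7.69% each, against 11.3% and 13.4%). The largest fall was that of HKDC1, a hexokinase, in A549, from 30.7 ± 2.65 to 15.9 ± 0.967 FPKM (-0.92, adjusted p = 0.00182), and the largest rise was that of MPC2, a subunit of the mitochondrial pyruvate carrier, in PANC-1, from 20.4 ± 2.13 to 27.7 ± 2.43 FPKM (0.44, adjusted p = 0.0217). These further lists were not refitted with the same total sum, under which the median PANC-1 gene lay at -0.68 and only 96 genes rose. How far the PANC-1 rises in these lists depend on the scaling was thus not tested.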

How the data were processed

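The study measured total RNA, depleted of ribosomal RNA, in 24 libraries of 4 lines, with 3 biological replicates for each of 8 groups and groups taken from the sample labels. Per the study's methods and processing notes, the authors trimmed reads with cutadapt 1.14, aligned them to hg38 with HISAT2 2.1.0 and SAMtools 1.5, counted them on Ensembl 89 genes with featureCounts 1.5.3 and normalised each line separately with edgeR 3.30.3. The deposited values are taken as FPKM, a unit the files do not name. The deposited tables also hold gene lengths and the authors' own log2 fold change, p-value and FDR columns, which were not used. All per-sample columns were mapped to samples (0 left unused).

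For each line, genes averaging 0.5 FPKM or more across its 6 libraries were fitted with limma 3.58.1 (R 4.3.3, eBayes with trend, two-sided) on log2(FPKM + 0.5), and p-values were adjusted by Benjamini-Hochberg over all genes tested, with calls at 0.05. A limma F test over the 24 libraries compared lines. Whole reads were recovered from the FPKM steps (100% of values whole within 0.01) and gave a limma voom alternative, which called 28 members higher and 3 lower in A549, 10 and 7 in ES-2, 11 and 13 in MV3 and 10 and 4 in PANC-1. The fits were tested on simulated data. Alternatives were pseudocounts of 0.1 and 1, other filters, rescaling to the same sum, a replicate block and leaving out each library. The members and lists were chosen with earlier results of these data known. Values of every library are given for members called with a log2 change of 1 or more in size, at least in the line of that change. They are given in at least 1 line for the member of each class with the highest mean. In other lines these members are given more briefly. For the further lists the largest called rise and fall are given. Members given library by library beyond that rule were chosen after their values were seen. Gene coordinates are from GENCODE 44 and promoters from RefSeq (GRCh38.p14). Of the line identity markers, 1 is not reported here.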

Additional observations from a re-analysis of the deposited data

Results flagged for a closer look

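The log2 fold change differed between the 4 lines for 27 members (limma F test over 24 libraries, adjusted over all 12816 genes tested). For PANC-1, line cannot be told apart from harvest time (96 h, against 72 h in the other lines) or from its scaling. Among glycolytic enzymes the adjusted p was 0.000373 for HK1, 5.53e-07 for HK2, 0.0313 for GPI, 6.18e-07 for PFKP, 0.0115 for PFKL, 7.72e-07 for ALDOA, 7.57e-06 for TPI1 and 0.000435 for GAPDH. It was 1.35e-07 for PGK1, 0.00211 for PGAM1, 5.31e-05 for ENO1, 1.27e-07 for ENO2, 0.000151 for PKM, 2.69e-07 for LDHA and 1.15e-05 for LDHB. PFKL passed this test without being called in any single line, with log2 fold changes of 0.03, 0.08, 0.10 and -0.21 in A549, ES-2, MV3 and PANC-1. HK2 entered the test from A549 with 1 to 6 reads in the siC libraries, where only its siI1 values lifted it over the filter.

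Among the other HIF targets the adjusted p was 1.03e-09 for VEGFA, 0.000605 for NDRG1, 5.33e-08 for BNIP3, 3.35e-05 for BNIP3L, 0.0119 for KDM3A and 4.2e-07 for PDK1. It was 0.000807 for PFKFB3, 0.000123 for PFKFB4, 1.35e-07 for SLC2A1, 7.53e-07 for P4HA1 and 0.000668 for P4HA2. NDRG1 entered the test from PANC-1 with means of 0.459 FPKM in siC and 0.899 FPKM in siI1. Only its siI1 values lifted it over the filter there, on 31 to 59 reads a library. HIF1A, with rises in A549 and ES-2 and a fall in PANC-1, had an adjusted p of 9.29e-08. BNIP3L rose in all 4 lines and still differed in size, from 0.29 in PANC-1 to 0.90 in ES-2.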

How the results depend on the processing

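Of 2064 values of single genes under alternatives, 1843 kept their sign and side of the threshold, 98 lost and 53 gained a call, 56 changed sign without being called in either fit, and 14 changed sign with a call in 1 of the fits at least. These 14 were in PANC-1 with the libraries set to the same sum, where the log2 fold changes were -0.60 for HK1, -0.57 for GPI, -0.74 for PFKP, -0.28 for TPI1, -0.55 for GAPDH, -0.35 for PGK1, -0.49 for ENO1, -0.45 for PKM, -0.68 for LDHA, -0.62 for VEGFA, -0.43 for BNIP3L, -0.66 for EGLN1, -0.58 for P4HA1 and -0.67 for ARNT, beside a median of -0.68 over all genes. That scaling left 0 members higher and 24 lower in PANC-1, and 96 genes higher and 8870 lower in all. The sum over genes of at least 500 bases, chosen after seeing the data, gave 6 members lower in PANC-1, and over all genes 2448 higher and 1530 lower in ES-2 and 3845 and 2198 in MV3. On recovered reads, limma voom called 13 members lower in MV3 and 10 higher in PANC-1.

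The difference of class medians became 0.20, 0.42 and -0.0665 in A549, ES-2 and PANC-1 with means, 0.27 in ES-2 with a filter of 1 FPKM, -0.18 in PANC-1 with a pseudocount of 0.1, and 0.25 in ES-2 and -0.14 in PANC-1 with transporters and flux regulators moved to the glycolytic class. Leaving out 1 library gave 0.17 to 0.28 in ES-2 and -0.26 to -0.10 in PANC-1, with 6 to 10 members lower in MV3 and 1 to 2 lower in PANC-1. Over all A549 genes it gave 526 to 761 higher and 796 to 1036 lower, against 1092 and 1441 with all libraries. The cause of these shifts was not tested.

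To look for pairing, the mean of its group was first taken from the log2 value of each gene. On these deviations, same-numbered siC and siI1 libraries correlated at -0.06 to 0.07, none above 0.1. Most libraries did not correlate best with their own number, so the numbers were not taken to pair the samples. With the replicate block 15 members, 5 of them glycolytic enzymes, were higher in A549, where all genes gave 379 higher and 622 lower. The low depth of A549, at 3105215 to 4553326 reads a library, limits CA9 and HK2, whose siC libraries held at most 16 and 6 reads.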

Other observations

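The genes in these observations were picked from the further lists after their values were seen. DLAT, a subunit of the pyruvate dehydrogenase complex, was lower in all 4 lines, with log2 fold changes of -0.35 in A549, -0.53 in ES-2, -0.65 in MV3 and -0.52 in PANC-1 (limma, adjusted p = 0.0351, 0.00215, 0.000202 and 0.00255). In MV3 it measured 18.4 ± 0.276 FPKM in siC and 11.6 ± 0.529 FPKM in siI1 (mean ± SD, 3 libraries each), and in no line did the groups overlap.

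STC2, a secreted glycoprotein and HIF target, rose in all 4 lines, by 0.17 (MV3) to 1.37 (A549) on the log2 scale. Its PANC-1 rise (0.45) was not refitted with the same total sum, where the median PANC-1 gene lay at -0.68. PLOD2, a collagen lysyl hydroxylase, rose by 1.58, 1.13 and 0.60 in A549, ES-2 and MV3 and fell in PANC-1 (-0.22, limma, adjusted p = 0.0457). VHL, which targets hydroxylated HIF alpha subunits for destruction, rose by 0.40 in A549, 0.50 in ES-2 and 0.24 in MV3 and was not called in PANC-1 (0.18, limma, adjusted p = 0.104).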
